A study of Mus musculus with 161 samples.

Results

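The cells described here are the bone marrow monocytes of a mouse single-cell series, divided by their content of Apoe. Of 161 single cells in the series, 57 carry the label of bone marrow monocytes. Of these 57, 22 had more than 10 TPM of Apoe and are called Apoe-positive here, and 35 had at most 10 TPM and are called Apoe-low. TPM is a length-corrected abundance that sums to the same total in every cell. The cells were chosen by their Apoe values, so the Apoe difference between them is a description of the choice and not a result. The question was how the other genes differed between the 2 sets of marrow cells, and whether the Apoe-positive cells already resembled monocytes of the blood.

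Apoe encodes apolipoprotein E, a secreted lipid-binding protein that carries cholesterol and phospholipid and is taken up through receptors of the LDL receptor family. The liver is its main source, and cells of the macrophage lineage are a second one. Classical monocytes arise in the marrow from dividing progenitors, among them the common monocyte progenitor (cMoP). They stop dividing, leave the marrow with the help of the chemokine receptor CCR2, and circulate as cells with much Ly6C on their surface.

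All cells came from untreated C57BL/6 mice and were captured on the Fluidigm C1 microfluidic system, which makes 1 library from each capture site. The sort gate of the marrow monocytes was lineage-negative, CD117-, CD115+, CD135- and Ly6C+. That of the 38 blood monocytes was CD115+, CD11b+ and Ly6C high, and that of the 66 cMoP differed from the marrow monocytes in being CD117+. The extraction protocol in the labels, which describes flushed bone marrow enriched with magnetic beads, is the same for the blood cells. No label names an animal, so the Apoe-positive and Apoe-low cells are portions of 1 sample, cells are no replicates, and no difference has a test, a p-value or a replicate check. Every SD is over cells.

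The 57 marrow and 38 blood libraries share 1 flow cell and lane, none share an index pair, and no 2 columns of the table are identical. Read depth cannot be recovered from TPM and is unknown. The number of genes above 1 TPM stands in for library complexity. Its median was 4340 in Apoe-positive cells, 4897 in Apoe-low cells and 4320 in blood cells, so fewer genes were detected in the Apoe-positive cells. The median share of mitochondrial transcripts was 4.20% in Apoe-positive and 4.45% in Apoe-low cells. In ribosomal protein genes the medians were 6.49% and 6.50%. Both sets carried the markers of the label: Ccr2 lay between 167 and 3441 TPM in the Apoe-positive cells and between 183 and 4403 TPM in the Apoe-low cells. Lyz2, which encodes lysozyme, was at 2401 TPM or more in every marrow cell. Ly6c2 was above 10 TPM in all 57.

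The Apoe values chose the cells. In the Apoe-positive cells they ran from 13.99 to 2223 TPM with a median of 291 TPM. In the Apoe-low cells they ran from 0 to 9.65 TPM with a median of 1.87 TPM. 11 of the 35 Apoe-low cells were listed at 0, and the other 24 had more than 1 TPM, so Apoe-low does not mean that the transcript was absent. Just below the threshold lay cells at 8.71, 9.58 and 9.65 TPM, and just above it cells at 13.99, 14.31 and 24.96 TPM. The threshold therefore cuts a continuous range in the marrow. In blood, 31 of 38 cells were above 10 TPM, with a median over all 38 of 1804 TPM and a highest value of 6865 TPM. Among cMoP, 56 of 66 cells were listed at 0 and 6 were above 10 TPM. Apoe lies on chromosome 7 from 19696244 to 19701310 in GRCm38.p6 and is protein-coding.

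**Figure D1:**
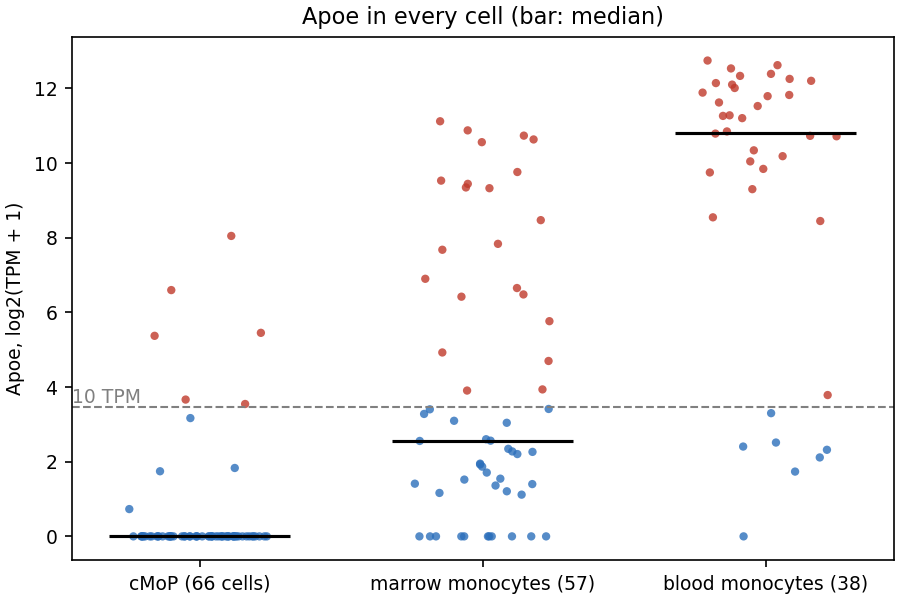
Apoe in each single cell as log2(TPM + 1), for 66 cMoP, 57 marrow monocytes and 38 blood monocytes; the dashed line is at 10 TPM and bars are medians. The 22 marrow cells above the line spread from 13.99 to 2223 TPM, while 31 of the 38 blood cells lie above it.

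The clearest pattern in the rest of the transcriptome was in genes of cell division, all measured members of which were lower in Apoe-positive cells. Effect sizes are the difference of the mean over cells of log2(TPM + 1), Apoe-positive minus Apoe-low, and measured genes are those that exceed 1 TPM in 10% or more of either set. The pseudocount of 1 makes differences of low genes look smaller. Of 11709 measured genes, 370 (3.16%) were higher by more than 1 on this scale and 1512 (12.9%) were lower by more than 1. Over all these genes the median difference was -0.16, with 38.6% of them higher. A tilt towards lower values is therefore the background of each list below.

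Of 35 genes of G2 and M phase, when a cell prepares to divide and then divides, 34 were measured and all 34 were lower in Apoe-positive cells. 31 of them (91.2%) were lower by more than 1, and the median was -1.48. Ccnb2 encodes cyclin B2, which activates the mitotic kinase CDK1. Its values ran from 0 to 602 TPM in Apoe-positive cells with a median of 0, and from 0 to 1794 TPM in Apoe-low cells with a median of 40.4 TPM. Only 1 of 22 Apoe-positive cells had Ccnb2 above 10 TPM (4.55%, 95% Clopper-Pearson interval 0.115 to 22.8%), against 20 of 35 Apoe-low cells (57.1%, 39.4 to 73.7%) and 0 of 38 blood cells, which allows up to 7.89% (3 cells of the total). Such intervals cover the counting of cells only. The difference in Ccnb2 was -4.06, between means of 0.55 ± 1.97 and 4.61 ± 4.06. Cdk1, the kinase itself, differed by -2.75 and was above 10 TPM in 1 of 22 against 13 of 35 cells. Aurkb, a kinase that orders chromosome attachment, differed by -2.45. Top2a, the topoisomerase that untangles replicated chromosomes, differed by -2.38 and was above 10 TPM in 4 of 22 against 14 of 35 cells. The sets overlapped in each of these genes, since many Apoe-low cells were also at or near 0.

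The promoters of these genes share short sequence elements, which the listing for Ccnb2 and Cdk1 shows because these genes had the largest differences of the list. As background, the CHR element (TTTGAA) and the CCAAT box are classical features of promoters active in G2 and M phase. The stretches run from 100 bases before to 12 bases after the annotated start in RefSeq for GRCm38.p6. Capitals mark TTTGAA and CCAAT, the latter appearing as ATTGG when on the other strand. The Ccnb2 stretch is chr9:70421543-70421654 on the minus strand, and the Cdk1 stretch chr10:69352901-69353012 on the minus strand.
Ccnb2: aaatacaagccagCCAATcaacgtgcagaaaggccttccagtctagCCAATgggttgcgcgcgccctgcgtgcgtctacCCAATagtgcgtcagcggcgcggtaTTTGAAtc
Cdk1: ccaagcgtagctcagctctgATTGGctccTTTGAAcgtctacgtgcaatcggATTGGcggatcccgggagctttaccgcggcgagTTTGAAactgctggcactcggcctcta
Promoter windows of 300 bases were found for 30 of the 35 genes, with 31 windows. TTTGAA on either strand was in 23 of the 31 (74.2%), against 17.9% of all 32851 promoter windows of the same length. CCAAT on either strand was in 74.2%, against 37.4% of all windows. A match says only that the letters are there. Among 29 windows of S phase genes, 13.8% held TTTGAA and 65.5% held CCAAT. GGCGGGAA, an E2F-like run searched on both strands, was in 13.8% of the S phase windows, in none of the 31 G2 and M windows and in 2.19% of all windows.

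Genes of S phase, when DNA is copied, followed with a median of -0.94. Of 30 listed, 29 were measured, all 29 were lower, and 14 (48.3%) were lower by more than 1. Tipin, which steadies the replication fork, differed by -2.06, Uhrf1, which maintains DNA methylation behind the fork, by -2.04, and Mcm4, a part of the replicative helicase, by -1.92. Rrm2, a subunit of the enzyme that makes deoxynucleotides, differed by -1.82. In all these genes blood cells had low means too, of 0.37 for Tipin, 0.12 for Uhrf1, 1.52 for Mcm4 and 1.02 for Rrm2.

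The division genes were unevenly spread among cells. The mean of log2(TPM + 1) over the 34 measured G2 and M genes was above 1.81, the highest value among blood cells, in 14 of 35 Apoe-low cells and in 1 of 22 Apoe-positive cells. That 1 cell, with a value of 4.14, had between 10 and 100 TPM of Apoe. All other Apoe-positive cells were at or below 1.29. The blood cell at 1.81 had 6630 genes above 1 TPM, against a blood median of 4320. Its share of ribosomal protein genes was 0.954%, against a blood median of 5.97%. Cells with 0 Apoe reached 7.43 and those between 0 and 10 TPM reached 6.70, so cells with high values were found at both Apoe levels below the threshold. The medians were close by comparison, at 0.87 for Apoe at 0, 1.29 between 0 and 10 TPM, 0.71 between 10 and 100 TPM, 0.79 above 100 TPM and 0.55 in blood.

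**Figure D2:**
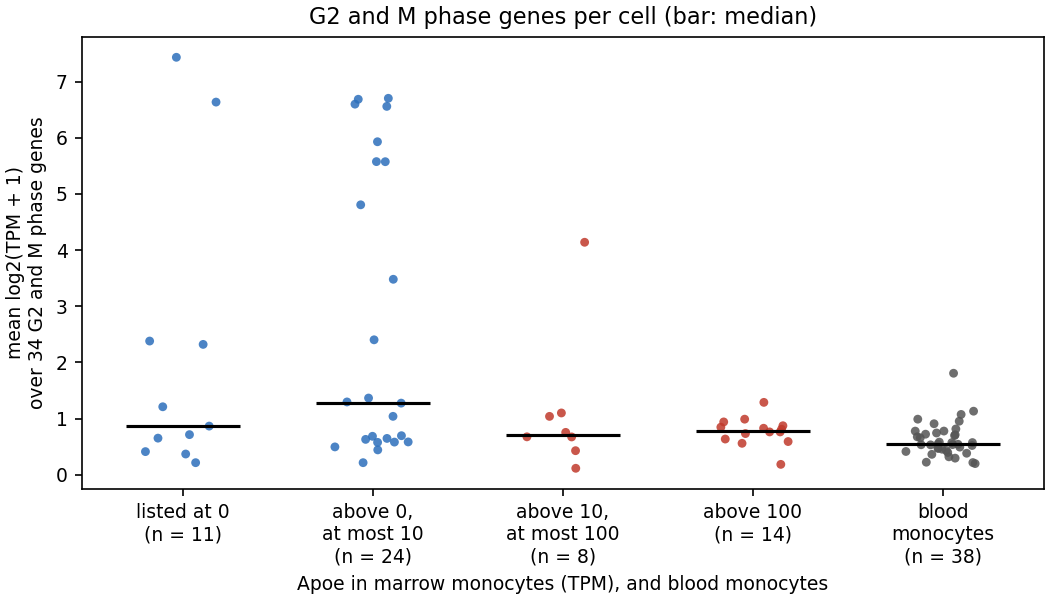
Mean log2(TPM + 1) over 34 genes of G2 and M phase in each cell, by the Apoe range of the marrow cell, with blood monocytes at the right; bars are medians. 14 of 35 cells at or below 10 TPM of Apoe lie above the highest blood cell, against 1 of 22 above 10 TPM.

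Cells with high division genes were then left out. Without those above 10 TPM of Top2a, 18 Apoe-positive and 21 Apoe-low cells were left. The G2 and M median was then -0.15 (7 members higher, 15 lower, of 22 measured) and the S phase median -0.09. Top2a is itself in the G2 and M list, so a smaller difference follows in part from the choice of cells left out. With the Apoe threshold at 1 TPM the G2 and M median was -0.45, with 25 lower and 9 higher. Ccnb2 differed by 0.42 at that threshold, and by -2.82 without the Top2a cells.

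Most genes of energy metabolism were lower in Apoe-positive cells as well. All 65 nuclear genes of oxidative phosphorylation, which encode the respiratory chain and ATP synthase, were measured. 58 were lower and 7 higher, 33 (50.8%) were lower by more than 1, and the median was -1.06. Without the Top2a cells the median was -0.77 with 54 lower and 11 higher, and in cells with 3500 to 5500 genes above 1 TPM it was -0.79 with 55 lower and 10 higher. It was -0.30 with an Apoe threshold of 1 TPM (37 lower, 28 higher), and also -0.30 when group means of TPM were compared (48 lower, 17 higher). Ndufv2, a complex I subunit, ran from 0 to 541 TPM in Apoe-positive cells with a median of 0, and from 0 to 1069 TPM in Apoe-low cells with a median of 127 TPM. It was above 1 TPM in 7 of 22 against 28 of 35 cells. The difference was -3.80. Atp5b, the catalytic subunit of ATP synthase, had medians of 94.0 and 663 TPM and differed by -2.40. Sdhb of complex II differed by -2.11. Blood cells were near the Apoe-positive level in these genes, with means of 2.66 for Ndufv2, 6.59 for Atp5b and 5.22 for Sdhb, against Apoe-positive means of 2.08, 6.20 and 5.09. The lower complexity of Apoe-positive cells (medians of 4340 against 4897 genes) moves in the same direction, and its part in the difference was not tested beyond that range of genes per cell.

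All 16 glycolysis genes were measured, and 14 were lower, with a median of -0.66 and 5 (31.3%) lower by more than 1. Gpi1, which converts glucose 6-phosphate to fructose 6-phosphate, differed by -1.77 and Pgam1, a phosphoglycerate mutase, by -1.61. Without cells above 10 TPM of Top2a, Mki67, Cdk1 or Ccnb2 (14 against 11 cells) the glycolysis median was -0.07, with 9 lower and 6 higher. Of 19 cholesterol synthesis genes, 17 were measured, 14 were lower and the median was -0.71. Fdps, which makes farnesyl diphosphate, was above 1 TPM in 1 of 22 against 12 of 35 cells and differed by -1.90. The list median was -0.28 without the Top2a cells.

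The 15 largest negative differences held division genes and genes of other roles. Hmgn2, a nucleosome-binding protein that loosens chromatin, ran from 0 to 486 TPM in Apoe-positive cells with a median of 0.885 TPM, and from 0 to 1998 TPM in Apoe-low cells with a median of 731 TPM. It was above 1 TPM in 11 of 22 against 32 of 35 cells, and the difference was -5.42 (means 3.02 ± 3.74 and 8.44 ± 2.98). Without the Top2a cells it was -5.30. Lgals1, which encodes the sugar-binding protein galectin-1, had medians of 16.4 and 711 TPM and differed by -4.18, and by -4.74 without the Top2a cells. Both genes were in blood at the Apoe-positive level, with means of 2.27 for Hmgn2 and 4.19 for Lgals1.

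Stmn1, which destabilises microtubules, and Tuba1b, an alpha-tubulin, differed by -3.66 and -3.58. Anp32e, a chaperone of the histone variant H2A.Z, was above 1 TPM in 2 of 22 against 22 of 35 cells and differed by -3.30. Manf, a protein of the endoplasmic reticulum that is induced when protein folding fails, differed by -3.62, and Bcap31, a membrane protein of the same compartment, by -3.32. Psmb2, a proteasome subunit, differed by -3.35. Others were the actin-binding Tagln2 (-3.63), Nubp2 (-3.33), the chromatin-binding Banf1 (-3.32) and Nutf2-ps1 (-3.29). Nutf2-ps1 is annotated as a pseudogene and can share reads with its parent gene. For Tagln2, Manf and Nubp2 the blood mean (6.64, 3.25 and 2.71) lay nearer the Apoe-low mean (7.70, 4.91 and 4.07) than the Apoe-positive mean (4.07, 1.30 and 0.73).

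The 15 largest positive differences were smaller, from 2.43 to 3.42. Snap23, a membrane fusion protein used in secretion and phagocytosis, was the largest. It was above 1 TPM in all 22 Apoe-positive cells, from 7.61 to 836 TPM with a median of 268 TPM. The Apoe-low cells ran from 0 to 948 TPM with a median of 9.97 TPM, so the ranges overlapped while 28 of 35 were above 1 TPM. The difference was 3.42, and the blood mean of 4.46 lay nearer the Apoe-low mean of 3.77 than the Apoe-positive mean of 7.19. Gngt2, a G protein subunit found in Ly6C-low monocytes, had medians of 297 and 3.69 TPM and differed by 3.40. Chil3, a chitinase-like protein of classical monocytes, had medians of 1620 and 34.5 TPM and differed by 2.90. Pla2g7, a lipoprotein-bound enzyme that hydrolyses oxidised phospholipids, was above 1 TPM in 14 of 22 against 10 of 35 cells and differed by 2.86.

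The signal-regulatory protein receptor genes Sirpb1c and Sirpb1a differed by 2.81 and 2.68. They belong to a family of near-identical copies, so their values are uncertain where reads can be split among members. The remaining genes were Ms4a8a (3.21), Hmox2, which encodes heme oxygenase 2 (2.65), Hpgd, which breaks down prostaglandins (2.63), Arf3 of vesicle transport (2.57), Uba7, which activates the ubiquitin-like ISG15 (2.49), the kinase scaffold Spag9 (2.48), the membrane protein Ninj1 (2.48), the kinase Map3k8 (2.45) and Thbd, which encodes thrombomodulin (2.43). All 30 genes kept their direction, and a size above 1, without the Top2a cells and in cells with 3500 to 5500 genes. Without cells above 10 TPM of any of the 4 division genes, 27 kept a size above 1, and Sirpb1c (0.85), Ccnb2 (-0.22) and Stmn1 (-0.19) did not. With an Apoe threshold of 1 TPM only 20 did, with Spag9 at 0.05 and Thbd at 0.37, and Ccnb2 turned to 0.42.

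**Figure D3:**
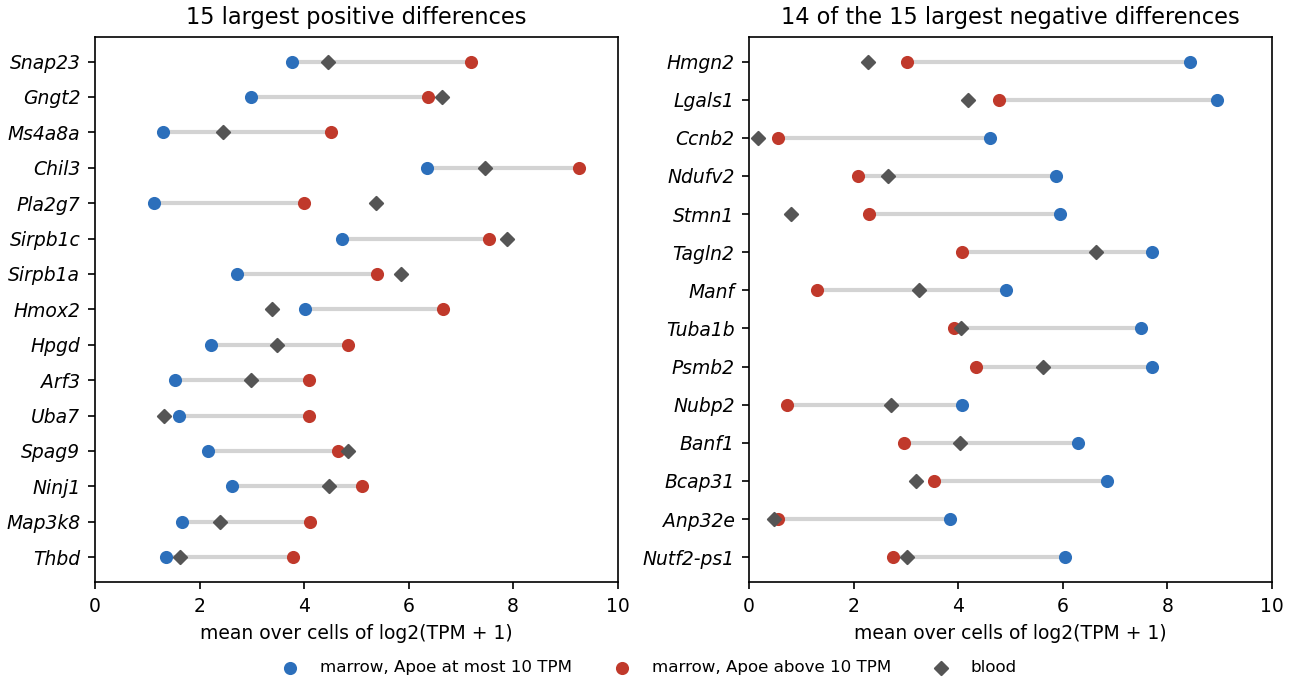
Mean over cells of log2(TPM + 1) for the 15 largest positive and 14 of the 15 largest negative differences, in Apoe-low marrow cells (35), Apoe-positive marrow cells (22) and blood cells (38). Blood lies below the Apoe-low mean in all 14 genes at the right, and above it in 13 of the 15 at the left.

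By the lists of monocyte biology, differences were mixed. Among 27 genes of classical monocytes, all measured, 16 were higher and 11 lower with a median of 0.16. S100a10, an annexin partner, differed by -3.01 and Chil3 by 2.90. Of 21 genes of Ly6C-low monocytes, 16 were measured and 11 were higher, with a median of 0.18 and 3 (18.8%) higher by more than 1. These 3 were Gngt2, Emr4 and Csf1r. 1 of the 16 (6.25%) was lower by more than 1, Spn at -1.37. Emr4, an adhesion receptor, was above 10 TPM in 8 of 22 against 2 of 35 cells and differed by 2.52. Csf1r, the receptor for the monocyte growth factor CSF1 and the CD115 of the sort, had medians of 178 and 20.3 TPM and differed by 2.29. Nr4a1, the transcription factor that Ly6C-low monocytes need, differed by 0.02, and Treml4 by -0.41.

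Of 25 receptors and adhesion genes of migration and retention, 19 were measured, 11 were higher and the median was 0.15. C5ar1, the receptor for complement C5a, was above 10 TPM in 5 of 22 against 1 of 35 cells and differed by 1.59. Cxcr4, which holds cells in the marrow by binding CXCL12, was lower: its medians were 0.915 and 7.30 TPM, it differed by -1.54, and the blood mean of 3.69 was above both marrow means (1.42 and 2.96). Ccr2 differed by 0.16.

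Of 27 genes of lipid and cholesterol handling other than Apoe, 22 were measured, with 10 higher and 12 lower, a median of -0.09, and 5 (22.7%) higher and 4 (18.2%) lower by more than 1. Beside Pla2g7, the 5 were Lrp1 (1.72), a receptor that binds apolipoprotein E, the scavenger receptor Msr1 (1.55), Apoc1 (1.21), a neighbour of Apoe on the chromosome and an apolipoprotein too, and the lipid droplet protein Plin2 (1.13). Apoc1 was above 10 TPM in 5 of 22 Apoe-positive cells and 1 of 35 Apoe-low cells. Abcg1, which exports cholesterol, was lower by -1.42 and the fatty acid carrier Fabp5 by -1.26. Apoe's partner in cholesterol export, Abca1, was at or below 3.27 TPM in all marrow cells and did not count as measured.

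Immediate early genes, induced within minutes of a stimulus, had the highest list median, 0.56, with 22 of 24 measured, 15 higher and 7 lower. Beyond 1, 3 (13.6%) were higher and 3 (13.6%) lower. The 3 higher were Dusp1 (1.72), Fos (1.35) and Zfp36 (1.14). Ier2, at -2.27, was the largest of the lower ones. Of 30 genes of the type I interferon response 29 were measured, 19 were higher and 10 lower, with a median of 0.44. Beyond 1, 8 (27.6%) were higher and 4 (13.8%) lower. Rtp4 differed by 2.17, Ifit3 by 1.88 and Ifi27l2a by 1.79, while the transcription factor Irf7 differed by -1.48. In cells with 3500 to 5500 genes above 1 TPM the median was 0.02 with 15 higher and 15 lower, so this list depended on the range of genes per cell.

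MHC class II genes present peptides to T cells. Of 12, 9 were measured and 7 were higher, with a median of 0.21. H2-DMa differed by 1.30 and Cd74, the invariant chain, by 1.29. H2-Aa differed by 0.00 and H2-Eb1 by -0.21, although the means of both were higher in blood. Class II genes were uneven among blood cells, with a mean log2(TPM + 1) above 6 in 13 of 38. This was so in 2 of 22 Apoe-positive and 2 of 35 Apoe-low cells. The list median turned to -0.19 when group means of TPM were compared as a log2 ratio, and to -0.45 with the Apoe threshold at 1 TPM. MHC class I genes went both ways. Of 14, 13 were measured, with 6 higher and 7 lower, and the median was -0.05, or 0.40 with an Apoe threshold of 100 TPM. 5 (38.5%) were lower by more than 1, led by the immunoproteasome subunits Psmb10 (-1.89) and Psmb9 (-1.54), alongside Erap1 (-1.55), which trims peptides. 2 (15.4%) were higher by more than 1, the regulator Nlrc5 (1.26) and H2-T23 (1.10). Of 33 genes of pattern recognition, 26 were measured and 5 (19.2%) were higher by more than 1, led by Myd88 (1.86), the adaptor of Toll-like receptors, and Tnfaip3 (1.65), a brake on NF-kB. Lysosome genes had a median of 0.01, with Ctsd, the protease cathepsin D, lower by -2.24. Among 20 measured transcription factors the median was 0.09, with Irf5 higher by 1.27 and Spi1, which encodes PU.1, lower by -1.26. Ribosome biogenesis had a median of -0.15 and the neutrophil list of 0.20.

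**Figure D4:**
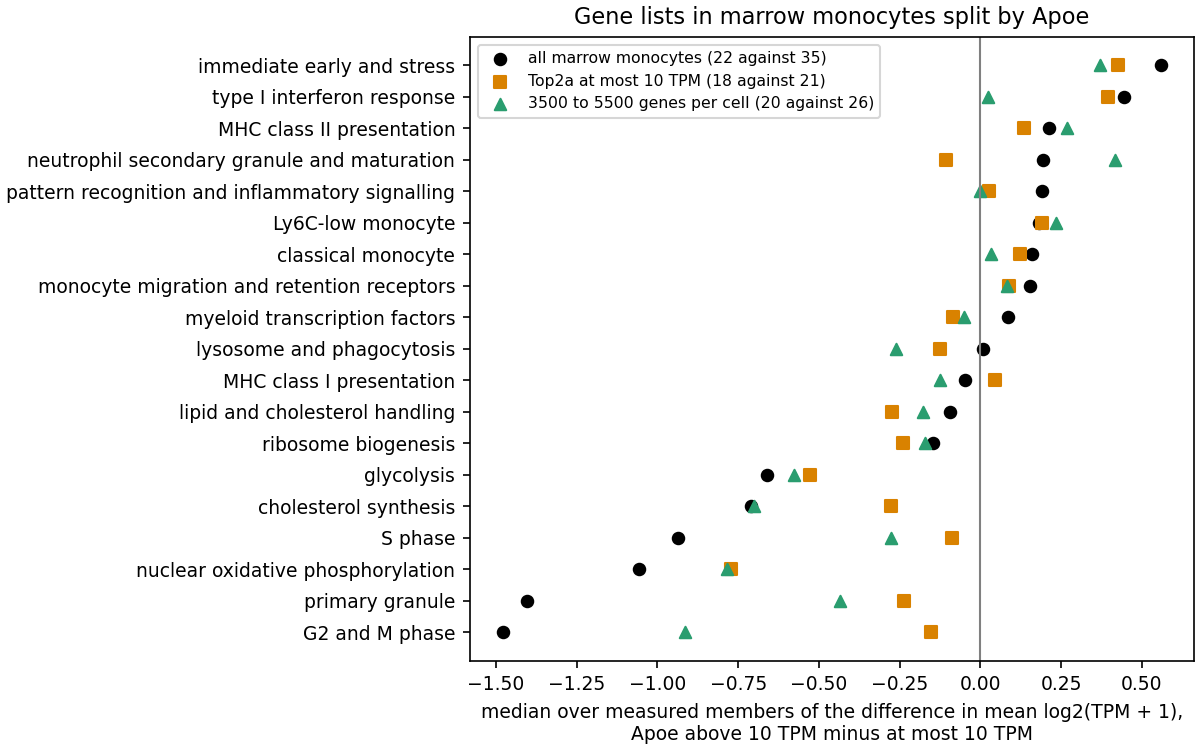
Median difference (Apoe-positive minus Apoe-low, mean log2(TPM + 1)) over measured members of 19 gene lists, for all marrow cells, without cells above 10 TPM of Top2a, and in cells with 3500 to 5500 genes above 1 TPM. The G2 and M median goes from -1.48 to -0.15 when the Top2a cells are left out, while that of oxidative phosphorylation goes from -1.06 to -0.77. Top2a is itself in the G2 and M list.

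Genes of primary granules are switched on at the progenitor stage. Of 10 listed, 5 were measured, with 3 lower and 2 higher in Apoe-positive cells. Elane, which encodes neutrophil elastase, was above 1 TPM in 0 of 22 Apoe-positive cells, which allows a share of up to 13.6%, and in 11 of 35 Apoe-low cells, in which it reached 1335 TPM. Ctsg, cathepsin G, was above 1 TPM in 0 of 22 and 7 of 35 cells, and Prtn3, proteinase 3, in 3 of 22 and 13 of 35. Srgn, the granule proteoglycan, and Mgst2, a glutathione transferase, were higher, by 1.52 and 0.45. The list median was -1.40, -0.24 without the Top2a cells, and -0.13 with no filter on low values.

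Apoe is abundant in tissue macrophages, so their markers were followed. Of 16, 5 were measured. 9 of the 16 were listed at 0 in every Apoe-positive cell, among them C1qa, C1qc, Vcam1 and Mrc1, and C1qb reached 1.26 TPM there. The summed level of the list had a median of 72.3 TPM in Apoe-positive cells (range 4.57 to 1743), 26.2 TPM in Apoe-low cells (1.49 to 1033) and 49.9 TPM in blood (0.31 to 2392). Emr1, which encodes F4/80 and is also found in monocytes, differed by 1.88 and was the only member of the list beyond 1. Markers of conventional and plasmacytoid dendritic cells, B cells, T and NK cells had list medians between -0.17 and 0.13. No member of the erythroid, megakaryocyte or basophil lists was measured. Of 10 B cell markers, Ighm alone was abundant, with medians of 443 TPM in Apoe-positive cells, 577 TPM in Apoe-low cells and 1.49 TPM in blood. Cd79a was listed at 0 in all of these cells. Doublets were not called.

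The genes with the closest cell-to-cell ranking to Apoe were described over the 57 marrow cells, for 3305 genes that passed the filter for named genes, by Spearman's rho, with no test. The cells share 1 label and 1 lane, and Apoe itself had a rho of -0.39 with the number of genes above 1 TPM. The highest was Btg1, an antiproliferative gene, with a rho of 0.57. It lay between 355 and 5378 TPM in Apoe-positive cells and between 53.8 and 2448 TPM in Apoe-low cells, with medians of 1556 and 587 TPM. The next were Snap23 (0.48), Fyco1 (0.48), Map3k8 (0.46), Sirpb1a (0.46), Arf3 (0.46), Pim1 (0.45), Lyz2 (0.44), Sik1 (0.42) and Dpy19l3 (0.42). The most negative were Hmgn2 (-0.58) and Lgals1 (-0.57). In blood, over 38 cells, Btg1 had a rho of -0.13 and Snap23 of 0.44.

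For the comparison with blood, a blood index was computed in each cell. It is the mean of log2(TPM + 1) over the 50 genes most above, minus the mean over the 50 genes most below, in blood against all 57 marrow monocytes, with Apoe left out. These marrow cells are therefore part of the choice of genes, and the index is a description. Blood cells had a mean index of 2.94 ± 0.98 (38 cells), Apoe-positive cells -1.48 ± 1.44 and Apoe-low cells -3.21 ± 1.38. The Apoe-positive mean was higher by 1.73, which is 28.1% of the way from the Apoe-low mean to the blood mean. Of the 50 blood-high genes, 40 were higher in Apoe-positive cells and 10 lower, with mean levels of 3.87 in Apoe-positive, 3.01 in Apoe-low and 5.75 in blood cells. Of the 50 blood-low genes 36 were lower and 14 higher, with mean levels of 5.35, 6.22 and 2.81. Over all 11709 measured genes 38.6% were higher and 61.4% lower. In cells with 3500 to 5500 genes, 37 of the blood-high genes were higher and 33 of the blood-low genes lower. Without cells above 10 TPM of the 4 division genes these counts were 39 and 31. On the blood index the Apoe-positive cells stood between the other sets and nearer to the other marrow cells than to blood.

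Cell by cell, the marrow and blood sets barely met on this index, whose genes were chosen as those that most separate the same cells. 2 of 22 Apoe-positive cells and 1 of 35 Apoe-low cells were above the lowest blood cell (0.57), and none was above the lower quartile of blood (2.31). The highest of all was an Apoe-low cell with Apoe at 0, at 2.01. Its MHC class II genes had a mean of 9.73, whereas the Apoe-low median was 3.51. The next 4 cells were Apoe-positive, with 2223, 1877, 1508 and 738 TPM of Apoe. Within the 22 Apoe-positive cells the index followed Apoe with a Spearman's rho of 0.78, and within the 35 Apoe-low cells with 0.02, given as descriptions without a test. The medians were -3.16 for Apoe at 0, -3.35 between 0 and 10 TPM, -2.61 between 10 and 100 TPM and -0.90 above 100 TPM. Over the 38 blood cells rho was 0.37.

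**Figure D5:**
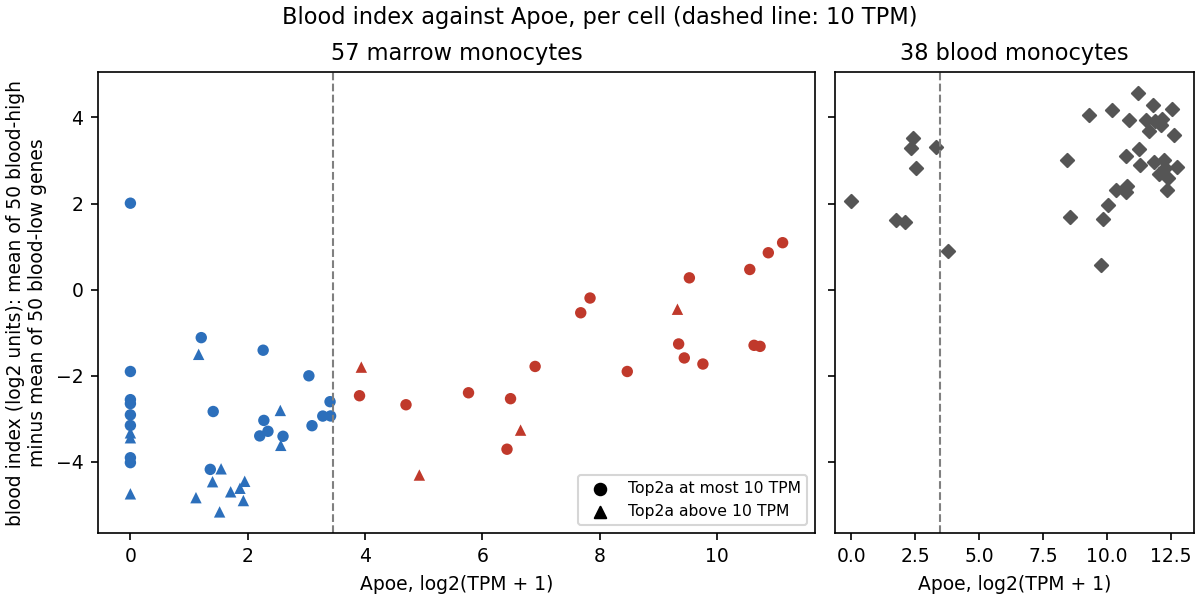
Blood index against Apoe, log2(TPM + 1), for 57 marrow monocytes (left) and 38 blood monocytes (right); the dashed line is at 10 TPM and triangles are marrow cells with Top2a above 10 TPM. The marrow cells above 100 TPM of Apoe have a median index of -0.90, against -3.35 between 0 and 10 TPM, and the blood cells have a mean of 2.94.

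Each cell was also correlated with the mean profile of each label over measured genes without Apoe, the cell left out of its own mean. The margin is r with the blood mean minus r with the marrow mean. Its median was -0.0383 in Apoe-low, -0.00698 in Apoe-positive and 0.0199 in blood cells. By this measure the Apoe-positive cells again stood between the other sets, but about midway, unlike on the blood index. 5 of 22 Apoe-positive cells (22.7%, 7.82 to 45.4%), 1 of 35 Apoe-low cells (2.86%, 0.0723 to 14.9%) and 33 of 38 blood cells (86.8%, 71.9 to 95.6%) were nearer the blood mean. In the 6 marrow cells nearer blood the margin in r was at most 0.0148. It was small in blood cells too, with quartiles of 0.0111 and 0.0261. All 5 Apoe-positive ones had more than 100 TPM of Apoe.

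The values moved when cells with Top2a above 10 TPM were left out. Among Top2a-low cells the mean index, over the same genes, was -1.26 ± 1.34 in 18 Apoe-positive and -2.64 ± 1.32 in 21 Apoe-low cells. This is a difference of 1.38 or 24.4% of the gap. When the genes were chosen again from the remaining cells, the difference was 12.98% of the gap. In cells with 3500 to 5500 genes it was 23.1% with the genes kept and 17.4% with genes chosen again. Without cells above 10 TPM of the 4 division genes it was 27.3% with the genes kept and 9.08% with genes chosen again. The size of the resemblance thus depended on the genes chosen, and the direction did not change in these settings. Genes chosen as blood against cMoP, which share no cell with the marrow sets, gave 73.9% of the gap, with 44 of 50 blood-high genes higher and 48 of 50 blood-low genes lower in Apoe-positive cells. 13 of those blood-low genes are in the cell cycle lists and 6 in the primary granule list. The index over the genes chosen against cMoP overlapped between marrow and blood cells. It ran from 2.10 to 7.36 in Apoe-positive, -2.61 to 7.25 in Apoe-low and 1.79 to 8.14 in blood cells. The upper quartile of Apoe-positive cells was 6.81 and the lower quartile of blood cells 6.60. Of the cMoP libraries, 60 were on other flow cells than the blood cells, which cannot be told apart from the difference between cMoP and blood, and for the other 6 the label names no flow cell. Without the Top2a cells the share over the same genes was 61.5%, with 39 of 50 blood-high genes higher. Of the blood-low genes 36 were then lower and 13 higher, and their median went from -1.45 to -0.37.

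Single genes showed where the resemblance held and where it did not. Among the largest blood-high genes, Pla2g7 had mean levels of 1.13 in Apoe-low, 3.996 in Apoe-positive and 5.38 in blood cells, and Marcks, a substrate of protein kinase C at the membrane, 3.41, 5.53 and 7.63. Dusp1 and Cd74 were intermediate too. Tubb6, a tubulin, was at 1.02, 1.69 and 5.45, Metrnl, a secreted protein, at 2.44, 2.67 and 5.89, and H2-Aa at 2.24, 2.24 and 5.52, all 3 near the Apoe-low level. The SD of H2-Aa over blood cells was 5.40, so its blood mean stood for a wide spread of cells. Of the blood-low genes, Hmgn2 was at 8.44, 3.02 and 2.27 and Stmn1 at 5.96, 2.30 and 0.81, near blood in both. Ighm was at 7.24, 7.03 and 2.98, Hk2, a hexokinase, at 7.16, 7.23 and 3.65, and Ly6i at 5.54, 5.09 and 1.73, near the Apoe-low level. Susd3 was higher in Apoe-positive cells by 2.13 although blood was lower than both marrow sets (5.42, 7.55 and 2.88).

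The same division by Apoe in blood, where 31 cells were above 10 TPM and 7 were not, shares no cell with the marrow. Of 12153 measured genes 1417 (11.7%) were higher and 1299 (10.7%) lower by more than 1, with 7 cells on one side. Over all of them 51.1% were higher and 48.9% lower. The differences in blood and in marrow had a Pearson's r of 0.05 over 10256 genes, which are not independent of each other. 12 of the 15 genes with the largest positive differences in marrow were also higher in Apoe-positive blood cells, with a median of 1.004, and 11 of the 15 with the largest negative differences were lower, with a median of -0.67. G2 and M genes, which blood cells barely expressed, had a median of 0.07 there, and oxidative phosphorylation 0.04. Whether the marrow and blood differences differ was not tested.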

How the data were processed

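Single-cell mRNA of 57 marrow monocytes, 38 blood monocytes and 66 cMoP was analysed, grouped by the labels. The authors deposited 1 table of TPM values, 43280 gene symbols by 161 cells, with column sums from 997939 to 999955. RSEM 1.2.19 and the build GRCm38 are named in the submitters' processing notes. The aligner was not given in the sources used here, nor was the annotation. TPM has a fixed total, so an abundant transcript lowers the values of others. An exact 0 can be a failed estimate.

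From the deposited TPM, differences of the mean of log2(TPM + 1) were computed with numpy 2.4.6, pandas 2.3.3 and scipy 1.17.1. Measured genes exceed 1 TPM in 10% or more of either set. The named genes are the 15 largest differences in each direction, above 1 TPM in at least 50% of the higher set (predicted, Rik, mitochondrial, ribosomal protein and microRNA symbols left out), the 10 most like Apoe, the 10 largest blood-high and blood-low genes, up to 4 members of each of 28 gene lists, and defining markers of other cell types. Other genes named in the text were chosen after their values were seen, as were the motifs, the exclusion by 4 division genes and the index with genes kept. The cells, lists and rule were chosen with earlier results of these data known. With 1 sample of cells a group there is no test. The difference function was tested on simulated data. Alternatives are pseudocounts, filters, Apoe thresholds, scaling of cells, ranges of genes per cell and exclusion of dividing cells. A few genes that the rule or lists hold are not reported here.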

Additional observations from a re-analysis of the deposited data

Results flagged for a closer look

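Apoe above 10 TPM was seen in 9.09% of cMoP cells, a population that enters no division by Apoe here. These were 6 of 66 cells (95% Clopper-Pearson interval 3.41 to 18.7%). 3 of them were among the 6 cMoP whose labels name no flow cell, where the highest value was 264 TPM, and 3 among the other 60, where it was 40.4 TPM. The 3 with no named flow cell had 9067, 9971 and 8861 genes above 1 TPM, against a cMoP median of 6662. Their MHC class II genes had means of 8.18, 8.75 and 8.52, against a cMoP median of 3.26. Whether these libraries hold single cMoP was not tested. The share is listed here because cMoP lie outside the divisions by Apoe above. No control cells that should lack Apoe were analysed here, so the share is a value without a background.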

How the results depend on the processing

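No paired analysis was possible because the labels give no replicate numbers that groups share. Sizes beyond 1 depend on the scale: the 370 higher and 1512 lower marrow genes became 909 and 2820 with a pseudocount of 0.1, 110 and 443 with 10, and 1796 and 3046 with the log2 ratio of the mean TPM. For the blood division (1417 and 1299) they were 2869 and 2353, 440 and 517, and 4306 and 2197. The higher marrow genes were 727 with an Apoe threshold of 1 TPM, 675 with 100 TPM, 1031 for above 100 against at most 1 TPM, 620 with 3500 to 5500 genes, 610 without Top2a cells, 1010 without cells above 10 TPM of Top2a, Mki67, Cdk1 or Ccnb2, and 654 without cells between 10 and 100 TPM. The share of higher among genes beyond 1 was 19.7%, and 37.1% for the ratio of means, the threshold of 1 TPM and the 4-gene exclusion, 34.7% with 3500 to 5500 genes, 32.02% without Top2a cells, 32.2% for above 100 against at most 1 TPM and 27.96% with a threshold of 100 TPM.

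Cholesterol synthesis was -1.56 as the ratio of means, 0.0177 with the threshold of 1 TPM and 0.0246 without cells carrying any of the 4 genes. With the threshold of 1 TPM, glycolysis was 0.0638, Ccnb2 0.42, the index difference 0.30 and its share of the gap 5.29%, against 73.9% with genes chosen against cMoP. The cause was not tested. Over 14 settings, 405 of 420 values of the 30 single genes kept their direction and a size above 1, and 10 of the other 15 came with the threshold of 1 TPM. List medians changed sign in 46 of 332 values, 3 of them in lists whose median was beyond 0.5. Depth is unknown, so values listed at 0 cannot be told from values missed.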
